A study of Caenorhabditis elegans with 2 samples.

Results

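The genes described here encode molecular chaperones and the segregase CDC-48 of Caenorhabditis elegans. They comprise every protein-coding gene of the Ensembl WBcel235 annotation named hsp-, cct-, dnj- or cdc-48., which gave 62 of 19985 protein-coding genes. Their 62 entries carry 60 distinct names, because the annotation gives the names hsp-16.1 and hsp-16.48 to a pair of near-identical entries each. By class fixed from the names, 6 belong to the HSP70 and HSP110 family, 2 to HSP90, 1 to HSP60, 8 to the cytosolic chaperonin CCT, 13 to the small heat shock proteins, 29 to the J-domain proteins and 3 to the CDC-48 family.

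Binding of the nuclear receptor NHR-67 was mapped by chromatin immunoprecipitation and sequencing (ChIP-seq) of an eGFP-tagged protein in whole L3 larvae of both sexes, pooled. All animals were of strain OP373, which carries the allele unc-119(tm4063) on chromosome III and the insertion wgIs373 with tagged nhr-67, so the tagged copy is an introduced one, and signal cannot be assigned to a cell type. The series holds 2 biological replicates of this group, with 1 control shared by both that was not analysed here, and no second condition. The authors deposited candidate regions for each replicate (30000 for replicate 1 and 19385 for replicate 2), 30000 called on both replicates pooled, and 137 peaks that passed their reproducibility threshold (IDR), called optimal peaks here.

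Chaperones bind unfolded or partly folded proteins and help them reach or keep their native shape. HSP70 does so in cycles of ATP hydrolysis that J-domain proteins start and HSP110 proteins restart by nucleotide exchange, HSP90 matures signalling proteins, and the chaperonins HSP60 and CCT enclose a client in a ring, in mitochondria and in the cytosol. Small heat shock proteins hold unfolded clients without ATP, and CDC-48 (p97 or VCP in mammals) pulls ubiquitylated proteins out of complexes and membranes for degradation. NHR-67 belongs to the tailless family of nuclear receptors and is best known for its part in the anchor cell, which induces the vulva, and in neurons.

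Of all members, 5 had an optimal peak: cdc-48.1, cct-8, hsp-60, hsp-1 and hsp-90. The pooled regions behind these peaks are shown because they carry the strongest signal of the classes CDC-48, CCT, HSP60, HSP70 and HSP90, together with the region of hsp-6, the mitochondrial HSP70, which is shown because it ranked high and holds none of the paired heat shock half-sites. In ce11 coordinates (WBcel235, 1-based) they lie at chrII:10563440-10563695 for cdc-48.1 (minus strand), chrIV:1094224-1094479 for cct-8 (minus strand), chrIII:1618962-1619217 for hsp-60 (plus strand), chrIV:17278382-17278637 for hsp-1 (plus strand), chrV:14685695-14685950 for hsp-90 (plus strand) and chrV:4827091-4827346 for hsp-6 (minus strand). Each is 256 bp of the RefSeq WBcel235 sequence, written 5′ to 3′ on the strand of the gene. Capitals mark matches on either strand to the pair of heat shock half-sites GAANNTTC, which heat shock factor binds in longer arrays, and to its other arrangement TTCNNGAA. They further mark the nuclear receptor half-site AAGTCA and the hexamer CGCGCA. The hexamer CGCACA was marked as well, and so was the hexamer CTGCGC.
cdc-48.1: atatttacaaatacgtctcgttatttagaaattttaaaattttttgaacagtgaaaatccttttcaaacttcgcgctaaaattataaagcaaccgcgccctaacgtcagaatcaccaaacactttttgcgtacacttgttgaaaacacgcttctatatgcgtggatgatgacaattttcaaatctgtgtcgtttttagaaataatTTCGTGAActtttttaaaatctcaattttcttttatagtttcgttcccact
cct-8: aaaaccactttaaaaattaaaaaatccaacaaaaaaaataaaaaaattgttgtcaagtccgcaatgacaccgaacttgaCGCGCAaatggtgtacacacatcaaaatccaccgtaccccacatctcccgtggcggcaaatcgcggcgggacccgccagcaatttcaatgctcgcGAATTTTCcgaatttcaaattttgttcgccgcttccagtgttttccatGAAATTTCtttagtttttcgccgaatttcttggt
hsp-60: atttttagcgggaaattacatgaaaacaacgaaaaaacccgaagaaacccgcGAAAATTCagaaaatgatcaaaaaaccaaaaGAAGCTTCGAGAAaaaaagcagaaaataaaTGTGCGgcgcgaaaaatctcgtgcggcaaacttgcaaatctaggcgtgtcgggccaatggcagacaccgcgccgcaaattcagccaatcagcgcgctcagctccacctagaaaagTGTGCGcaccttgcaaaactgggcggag
hsp-1: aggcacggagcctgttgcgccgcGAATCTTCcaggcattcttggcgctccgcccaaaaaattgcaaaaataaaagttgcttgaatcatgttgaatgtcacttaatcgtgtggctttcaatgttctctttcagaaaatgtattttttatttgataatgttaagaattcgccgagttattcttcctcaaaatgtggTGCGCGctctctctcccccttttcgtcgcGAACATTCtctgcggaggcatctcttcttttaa
hsp-90: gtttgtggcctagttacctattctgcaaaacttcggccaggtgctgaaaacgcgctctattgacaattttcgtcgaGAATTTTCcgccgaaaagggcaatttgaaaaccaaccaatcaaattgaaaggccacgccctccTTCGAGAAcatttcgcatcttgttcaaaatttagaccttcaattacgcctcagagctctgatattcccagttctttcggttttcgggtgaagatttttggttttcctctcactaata
hsp-6: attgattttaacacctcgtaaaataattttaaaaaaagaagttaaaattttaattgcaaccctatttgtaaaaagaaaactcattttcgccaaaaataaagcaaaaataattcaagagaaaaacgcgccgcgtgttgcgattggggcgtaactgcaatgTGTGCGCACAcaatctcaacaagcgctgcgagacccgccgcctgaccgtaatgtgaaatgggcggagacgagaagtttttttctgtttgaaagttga

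In these stretches all 5 regions with an optimal peak held at least 1 pair of heat shock half-sites, with 1 at cdc-48.1, 2 at cct-8, 3 at hsp-60, 2 at hsp-1 and 2 at hsp-90. This did not set them apart, since the regions of cct-1 and dnj-13, which have no optimal peak and rank above hsp-6, held 1 pair each. The regions of hsp-6 and hsp-12.3 held 0. For dnj-29, which has no optimal peak and ranks above cct-1, only the 101 bp around the summit are given here, and these held 0. A pair occurred in 30.8% of the 29969 nuclear pooled regions of 256 bp. The CGCGCA hexamer occurred 1 time at cct-8 and 1 time at hsp-1, and in 4.34% of those regions. CGCACA occurred 2 times at hsp-60 and 2 times at hsp-6, where the matches overlap on opposite strands, and in 5.60% of those regions. AAGTCA occurred in none of the 6 printed regions and in 11.5% of the pooled regions. The 3 hexamers named last among the motifs had been picked earlier from these same data, so their presence is a description and no independent result.

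Regions near a start were common among chaperone genes, as among genes at large, and members differed more from other genes among the strongest regions. A gene was counted when a region's summit lay within 1000 bp of one of its annotated transcript starts. In the pooled list 40 of 62 members had such a region (64.5%), against 53.1% of all protein-coding genes. In replicate 1 it was 43 members (69.4%), against 53.4% of all genes, and in replicate 2 it was 32 members (51.6%), against 38.8% of all genes. With 53.1% of all genes counted in the pooled list, having a region there says little about a single gene. In none of the 3 lists was a region found for 13 members (21.0%), against 27.4% of all genes.

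The share of members among the strongest regions was further from that of all genes. Ranks were taken within each list by the authors' signal value, whose exact definition was not found in the sources used, and are given as a percent of the list, so that a low percent is a strong region. Mitochondrial regions were ranked along with nuclear ones. Of the 30000 pooled regions 29970 were nuclear, and of the 137 optimal peaks 108 were. The highest pooled signal value was 979 over all regions and 90.8 over nuclear ones, so ranks near the top count mitochondrial regions. In the strongest 10% of the pooled list lay 18 members (29.03%), against 9.12% of all genes. In the strongest 1% of the pooled list lay 7 members (11.3%), against 1.32% of all genes, and 5 members had an optimal peak (8.06%), against 0.635% of all genes. The median rank of a member's strongest pooled region was 15.3%, against 38.1% for all genes with a region. The medians in replicate 1 were 19.4% for members and 38.9% for all genes, and those in replicate 2 were 23.9% for members and 41.3% for all genes. The signal value differs in scale between lists, so it is set side by side here only within a list. The members were chosen with earlier results of these data known, and no test was made of these shares.

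The strongest 10% was also taken in each replicate list, which covers fewer regions in the shorter replicate 2 list. The strongest 10% of the replicate 1 list held 16 members (25.8%), against 8.68% of all genes, and 15 of these (93.8%) were in the strongest 10% of the pooled list too, against 63.7% of all genes in the strongest 10% of replicate 1. The strongest 10% of the replicate 2 list held 10 members (16.1%), against 5.65% of all genes, and 7 of these (70%) were in the strongest 10% of the pooled list, against 41.4% of all genes in the strongest 10% of replicate 2. Without replicate 1 the count in the strongest 10% therefore stands at 10, against 18 in the pooled list. With lists shortened to equal length the pooled count was 15 (24.2%), against 6.33% of all genes. The pooled list was called on both replicates together, so its agreement with either is not one between separate data. Both replicate lists placed 6 members in their strongest 10% (9.68%), against 1.51% of all genes.

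**Figure D1:**
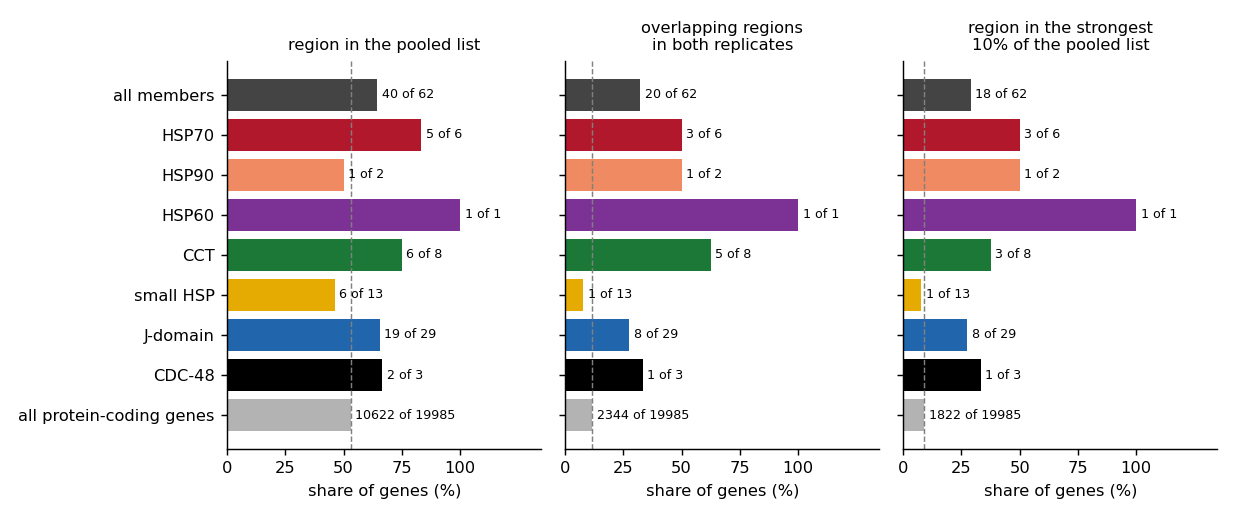
Share of genes (%) with a region within 1000 bp of a start, by chaperone class and for all members and all protein-coding genes in the pooled list, with overlapping regions in both replicates, and in the strongest 10% of the pooled list. Of all 62 members 64.5% had a pooled region and 29.03% one in the strongest 10%, against 53.1% and 9.12% of all genes; 3 of the 7 classes hold 3 genes or fewer.

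The CDC-48 family held both the strongest member and 1 without any region. At cdc-48.1, 1 of 2 genes for the p97 segregase in this species, the signal value was 69.8 in the pooled list (rank 33, 0.11%), 55.8 in replicate 1 (0.107%) and 13.6 in replicate 2 (0.31%). Its summits lay at -161, -170 and -169 bp from the start in these 3 lists, where negative values are upstream. Both replicate lists, and the pooled list called on them, thus placed a region near the top within a few bases of the same point. The summit was intergenic, and the one other start within 1000 bp was that of the snoRNA gene C06A1.9, at 504 bp.

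Its paralog cdc-48.2 had a signal value of 6.46 in the pooled list (71.6%) and 5.58 in replicate 1 (63.7%), and no region in replicate 2. Its pooled summit lay at -928 bp, near the edge of the window, and closer to the start of ctns-1, at 650 bp. The third gene, cdc-48.3, which RefSeq annotates as a homolog of ATPase family protein 2, had no region in any list. The nearest pooled summit to it lay at -1153 bp, outside the window, and ranked at 99.9%. Just outside the window, too, was a summit at -1161 bp from dnj-12 (32.3%). High signal in this family was therefore seen at cdc-48.1 and not at either relative.

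Among HSP70 genes hsp-1, hsp-6 and hsp-110 ranked highest in the pooled list, and hsp-4, of the endoplasmic reticulum (ER), ranked highest in replicate 2. At hsp-1, the constitutive cytosolic HSC70, the signal value was 31.1 in the pooled list (0.347%), 26.1 in replicate 1 (0.317%) and 7.72 in replicate 2 (2.72%), with the pooled summit at -449 bp. The start of the non-coding RNA F26D10.23 was nearer, at 97 bp, but no other protein-coding start was. At hsp-6, the mitochondrial HSP70, it was 19.4 in the pooled list (1.63%) and 12.8 in replicate 1 (5.53%), with no region in replicate 2. The hsp-6 summit, at -459 bp, was only 141 bp from the start of C37H5.5, annotated as a nucleolar complex protein and transcribed the other way.

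At hsp-110, the nucleotide exchange factor, the signal value was 15.4 in the pooled list (4.55%), 10.1 in replicate 1 (13.9%) and 3.88 in replicate 2 (33.2%). Its summit at -282 bp lay nearer to rpn-3, a subunit of the proteasome cap transcribed the other way, at 162 bp. The genes of the ER-resident BiP homologs, hsp-3 and hsp-4, ranked lower than these in the pooled list. At hsp-3 the signal value was 10.6 in the pooled list (20.7%), 10.9 in replicate 1 (10.6%) and 6.32 in replicate 2 (6.95%). At hsp-4 it was 7.40 in the pooled list (54.7%), 4.84 in replicate 1 (80.7%) and 9.83 in replicate 2 (0.923%). The replicate 1 summit of hsp-4 lay at -762 bp and that of replicate 2 at 16 bp, so these are separate places. The strongest regions of hsp-3 were separate too, with summits at 334 bp in replicate 1 and -115 bp in replicate 2, from different starts. A different pair of replicate regions at hsp-3 did overlap. In the replicate 2 list hsp-4 ranked above hsp-1, and hsp-3 above hsp-110. The heat-inducible hsp-70 had no region in any list.

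The 2 HSP90 genes stood at opposite ends. At hsp-90, the cytosolic HSP90, the signal value was 30.7 in the pooled list (0.357%), 18.5 in replicate 1 (1.06%) and 5.48 in replicate 2 (12.1%). The summits lay at -337, -362 and -530 bp from the start of the shorter of its 2 annotated transcripts, inside an intron of the longer one. The start of C47E8.4, a FAM50 homolog transcribed the other way, was 338 bp from the pooled summit, so for this summit the nearest gene is decided by 1 bp. Both replicate summits lay nearer to the start of C47E8.4 than to that of hsp-90. The other gene, hsp-75, a mitochondrial HSP90 relative, had no region in any list.

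At hsp-60, the mitochondrial chaperonin, the signal value was 44.96 in the pooled list (rank 48, 0.16%), 32.8 in replicate 1 (0.19%) and 11.0 in replicate 2 (0.573%). The summits lay at -652, -580 and -545 bp from the nearest hsp-60 start. The pooled summit was 161 bp from the start of Y22D7AL.10, which is transcribed the other way. RefSeq annotates Y22D7AL.10 as the mitochondrial 10 kDa heat shock protein, the lid of the HSP60 ring, and its systematic name kept it outside the member rule. One strong region therefore lay between the starts of both genes of the mitochondrial chaperonin, nearer to that of the lid.

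Of the 8 CCT subunit genes, whose products form 1 ring complex that folds actin and tubulin, 6 had a pooled region and 5 had overlapping regions in both replicates. The shares of all genes were 53.1% and 11.7%. At cct-8 the signal value was 48.8 in the pooled list (rank 43, 0.143%), 38.9 in replicate 1 (0.15%) and 9.19 in replicate 2 (1.23%). At cct-1 it was 23.1 in the pooled list (0.79%), 14.2 in replicate 1 (3.47%) and 8.75 in replicate 2 (1.49%). At cct-7 it was 13.7 in the pooled list (7.5%), 9.48 in replicate 1 (17.3%) and 6.04 in replicate 2 (8.40%). These 3 subunits ranked in the strongest 10% of the pooled list, where 9.12% of all genes did. Only cct-1 and cct-8 did so in both replicates, as did 1.51% of all genes.

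The other subunits were lower or without a region. In the pooled list cct-5 stood at 27.9%, cct-2 at 30.4% and cct-4 at 35.8%, and cct-4 had no region in replicate 2. At cct-3 a region was listed in replicate 1 alone, at 81.7%, and cct-6 had none in any list. The CCT genes share a complex, but their ranks spread from strong to absent. The 3 strongest all had a protein-coding start on the other side of the summit and nearer to it. For cct-8 this was Y55F3AR.2, a thioredoxin domain gene, at 189 bp against -432 bp for cct-8 itself. For cct-1 it was mig-5, a homolog of the Wnt signalling protein Dishevelled, at 132 bp against -288 bp, and for cct-7 it was T10B5.4, at 96 bp against -343 bp.

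**Figure D2:**
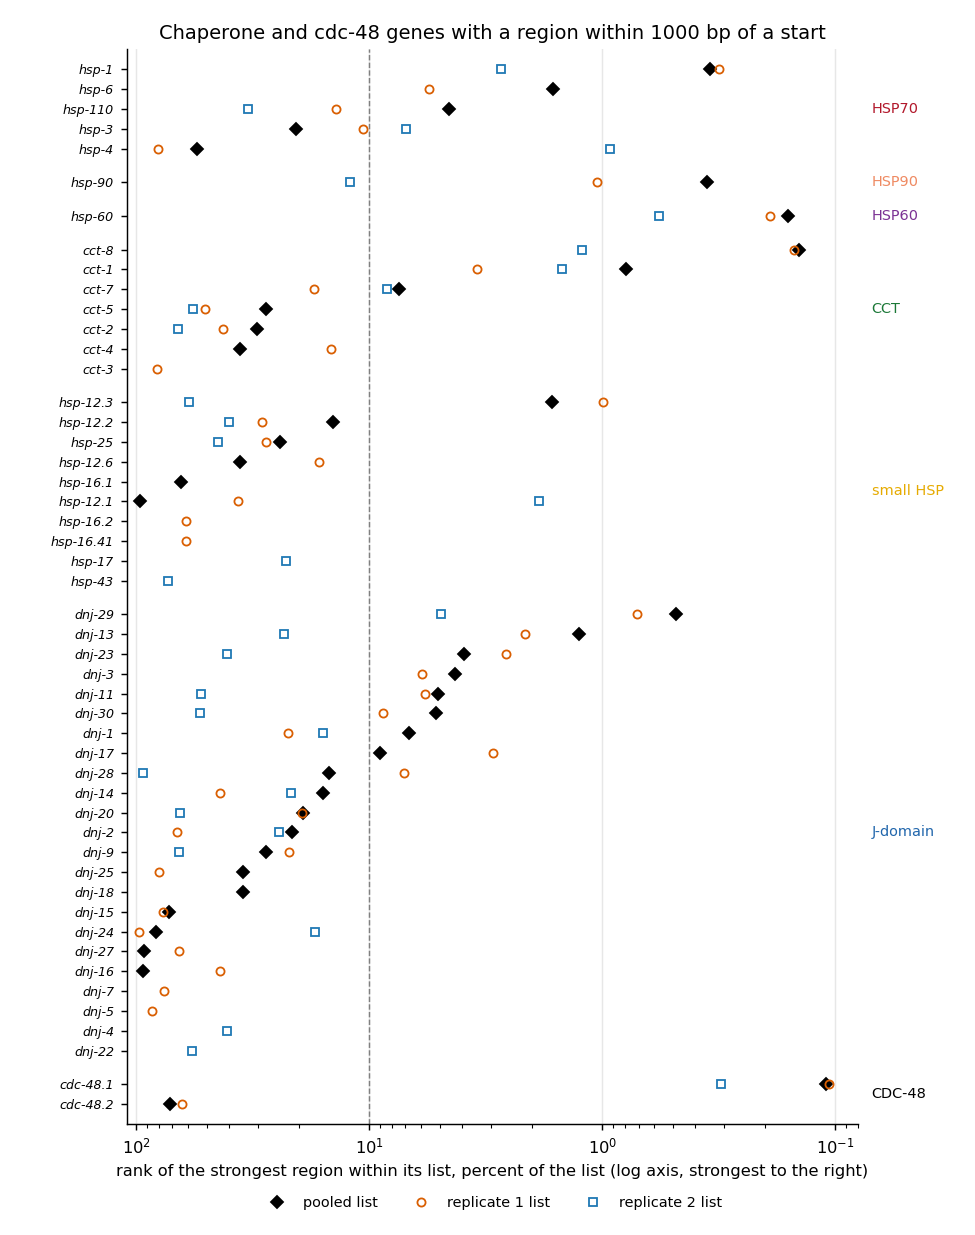
Rank of each member's strongest region within 1000 bp of a start, as a percent of its list on a log axis (low is strong), in the pooled list and in both replicates, with members grouped by class. The 5 members with an optimal peak lie at 0.357% or below in the pooled list, while hsp-4 and hsp-12.1 stand far apart between the lists.

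The small heat shock proteins had the weakest ranks of the larger classes. Of 13 genes 6 had a pooled region, with a median rank of 30.1%, and 1 had overlapping regions in both replicates. Among all genes 53.1% had a pooled region, with a median rank of 38.1%, and 11.7% had overlapping regions. The class median was thus no weaker than that of all genes. The strongest small heat shock gene was hsp-12.3, with a signal value of 19.4 in the pooled list (1.64%), 18.7 in replicate 1 (0.997%) and 2.91 in replicate 2 (59.4%). Its pooled summit lay at 910 bp, past the end of the short gene and 45 bp from the start of the snRNA gene F38E11.11, and its replicate 2 summit lay elsewhere, at -453 bp. At hsp-12.1, the gene with overlapping regions, the signal value was 5.37 in the pooled list (96.8%), 7.29 in replicate 1 (36.7%) and 8.34 in replicate 2 (1.86%). These replicate regions share only 1 bp, with summits at -7 bp in replicate 1 and -302 bp in replicate 2.

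The heat-inducible hsp-16 genes had few and weak regions. One hsp-16.1 entry (WBGene00002015) had a region in the pooled list alone, with a signal value of 6.83 (64.5%) at 987 bp, nearer to the snRNA gene T27E4.11 at 226 bp. The divergent genes hsp-16.2 and hsp-16.41 shared 1 region in replicate 1 alone, with a signal value of 5.71 (61.1%). The other hsp-16.1 entry (WBGene00002017) and both hsp-16.48 entries had none. Near the second hsp-16.1 entry a pooled region with a signal value of 18.0 (2.22%) had its summit at 1253 bp, outside the window. Reads from these near-identical copies may not be placed uniquely, so values at hsp-16 genes are uncertain.

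J-domain proteins, the partners that start the HSP70 cycle, formed the largest class. Of 29 genes 19 had a pooled region, 8 of these in the strongest 10%, 8 had overlapping regions in both replicates, and none had an optimal peak. The shares of all genes were 53.1%, 9.12%, 11.7% and 0.635%, in this order. The strongest J-domain gene was dnj-29, with a signal value of 27.3 in the pooled list (0.483%), 20.4 in replicate 1 (0.71%) and 6.83 in replicate 2 (4.94%). Its summits lay within 2 bp of each other, at -139, -139 and -137 bp. At dnj-13, a relative of mammalian DNAJB1 in the cytosol, it was 20.6 in the pooled list (1.26%), 15.7 in replicate 1 (2.16%) and 4.44 in replicate 2 (23.2%), with the pooled summit at -183 bp. The rank of dnj-29, just below the optimal peaks, was the best of any member without one.

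The 6 other J-domain genes of the strongest 10% ranked between 3.91% and 9.05% in the pooled list. In that order they were dnj-23, dnj-3, dnj-11, dnj-30, dnj-1 and dnj-17. In replicate 2, dnj-3 and dnj-17 had no region, and the ranks there were 40.7% for dnj-23, 52.6% for dnj-11, 53.6% for dnj-30 and 15.8% for dnj-1. The pooled regions of dnj-3, dnj-1 and dnj-17 lay at 911, 730 and 738 bp, downstream of a start. The strongest replicate regions of dnj-1 lay near a different start, at 222 bp in replicate 1 and 389 bp in replicate 2. A pooled region at that start, also at 222 bp, ranked at 8.93%. At the low end stood dnj-15 (72.8%), dnj-24 (82.6%), dnj-27 (92.7%) and dnj-16 (93.7%), of which dnj-27 encodes a J-domain protein of the ER. At dnj-24 replicate 1 ranked its region at 97.9% and replicate 2 another at 17.1%. No region in any list was seen at dnj-8, dnj-10, dnj-12, dnj-19, dnj-21 or dnj-26.

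The replicates overlapped more often at chaperone genes than at genes at large. Regions of both replicates that share at least 1 bp were found at 20 of 62 members (32.3%), against 11.7% of all genes. Of members with a replicate 1 region 46.5% had an overlapping replicate 2 region (20 of 43), against 22.0% of all genes with one. Of members with a replicate 2 region 62.5% had an overlapping replicate 1 region (20 of 32), against 30.2% of all genes with one. In the strongest 10% of the pooled list it was 14 of 18 members (77.8%), against 50.1% of all genes there, and below it 6 of 22 members (27.3%), against 15.0% of all genes. When at least 50% of both regions had to overlap, 15 members were left (24.2%), against 6.90% of all genes.

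Across genes with a region in both replicates, ranks were only loosely related. Spearman's rho was 0.32 over 28 members and 0.17 over 4833 genes in all, and Pearson's r of the log2 signal value was 0.46 over members and 0.36 over all genes. Over genes with overlapping regions rho was 0.63 for 20 members and 0.25 for 2344 genes in all, with r of 0.70 for members and 0.49 for all genes. These are correlations across genes, which are not independent replicates, and all points share the same libraries and control. The ranks are those of the strongest region in each replicate. At hsp-3, dnj-23, dnj-11 and dnj-30 the strongest regions did not overlap each other, although another pair of regions did. Of 16 members in the strongest 10% of replicate 1, 6 were there in replicate 2 too (37.5%), against 17.4% of all genes. Single genes ranged between close agreement, as at cdc-48.1 and hsp-60, and none, as at hsp-4.

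**Figure D3:**
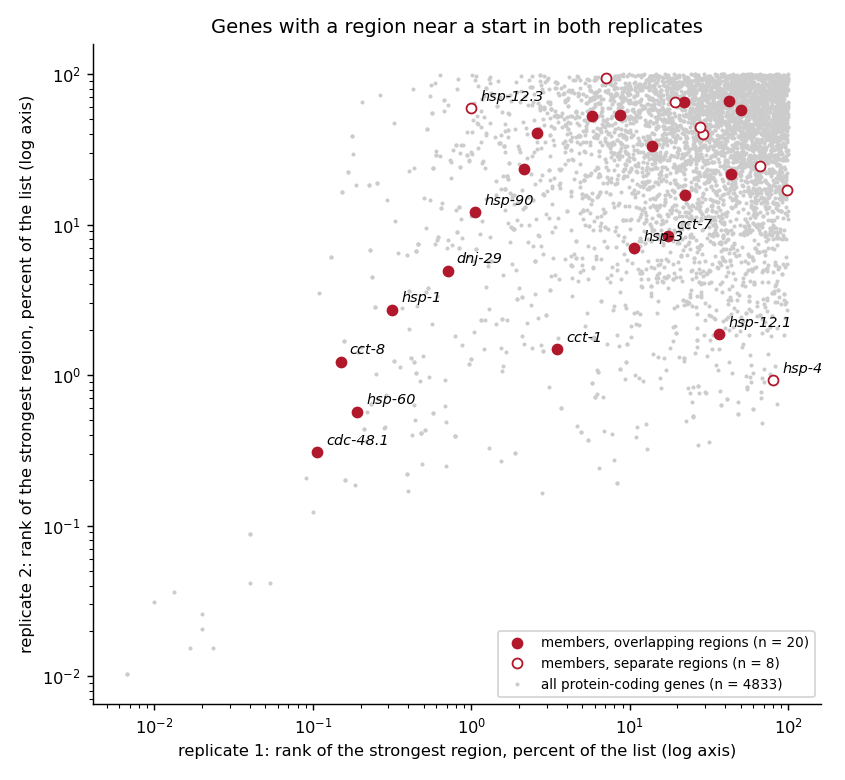
Rank of a gene's strongest region in replicate 2 against replicate 1, each as a percent of its list on log axes, for the 28 members with a region in both and for all protein-coding genes with one in both. In both replicates 6 members lie in the strongest 10%, with cdc-48.1 and hsp-60 under 1% in each, while others such as hsp-4 lie far from the diagonal.

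Most strong regions lay upstream of the chaperone genes, as they did at genes at large. Of 40 members with a pooled region 26 had the summit upstream of the nearest start (65%), against 55.7% of all genes, and in the strongest 10% it was 13 of 18 members (72.2%), against 66.96% of all genes there. The 9 best-ranked members, up to 1.63%, all had the summit upstream, and the next, hsp-12.3, did not. The median position was -174.5 bp for members and -78 bp for all genes. Summits were intergenic for 25 members (62.5%), against 39.8% of all genes, and in a coding exon for 7 members (17.5%), against 23.7% of all genes. Introns held 4 members' summits (10%), against 28.6% for all genes, and the 5′ UTR held 3 (7.5%), against 4.07%.

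**Figure D4:**
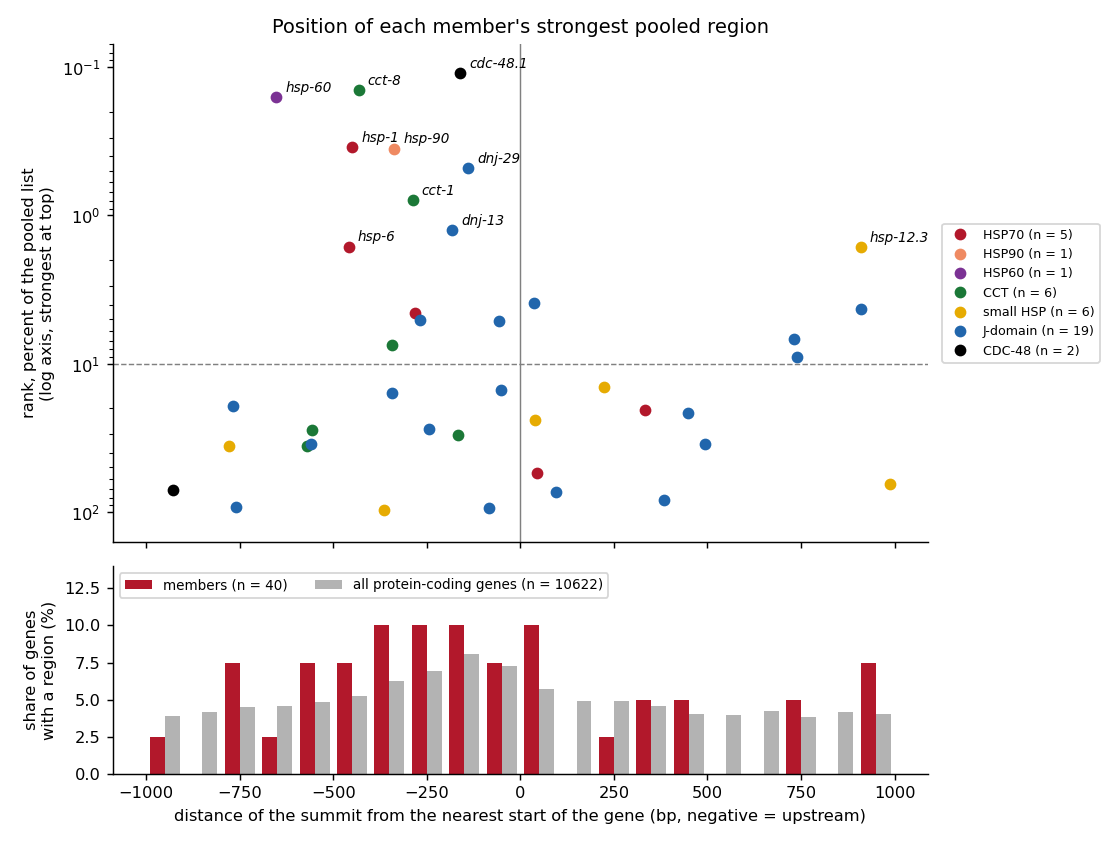
Distance (bp) of the summit of each member's strongest pooled region to the nearest transcript start, negative upstream, against its rank in the pooled list as a percent on a log axis (low is strong), by class. The 9 strongest members lie upstream, between -139 and -652 bp, and members of lower rank lie on both sides.

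Chaperone genes lie close to other genes, and this moved with the counts. Another protein-coding gene's start lay within 1000 bp of the start of 30 members (48.4%), against 25.5% of all genes, and 41.9% of members had more than 1 annotated start, against 27.4% of all genes. The strongest pooled region was nearest to the member itself in 27 of 40 cases (67.5%), against 85.8% of all genes. Within the strongest 10% this was so for 10 of 18 members, and the share of all genes there was not counted. The other 8 were cct-8, hsp-60, cct-1, hsp-6, hsp-12.3, hsp-110, dnj-11 and cct-7. The 10 include hsp-90, whose pooled summit lay almost as near to C47E8.4 and whose replicate summits lay nearer to it. When each region counted only for the nearest protein-coding gene, 31 members kept a pooled region (50%), against 47.7% of all genes. The count in the strongest 10% was then 11 (17.7%), against 7.38% of all genes. Overlapping regions in both replicates were then left at 10 members (16.1%), against 9.55% of all genes, and optimal peaks at 3 members (4.84%), against 0.425%. How much of the difference from all genes comes from shared upstream regions was not tested beyond these counts, and which gene of a divergent pair a region belongs to cannot be told apart.

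In the 101 bp around the summits the searched motifs were found at few members. Paired heat shock half-sites lay within 50 bp of the summit in 6 of 40 members' regions (15%), against 12.9% of the 9278 strongest regions of all genes, and in the strongest 10% of the list in 4 of 18 members' regions (22.2%), against 10.9% for all genes there. AAGTCA lay in 3 members' regions (7.5%), against 4.49%, none of them in the strongest 10%. CGCACA lay in 4 members' regions (10%), against 2.79%, at hsp-60, hsp-6, dnj-29 and dnj-18, and in the strongest 10% in 3 of 18 (16.7%), against 5.86%. CGCGCA was found in 2 (5%), against 2.60%, and CTGCGC in 2 (5%), against 1.68%. The median GC content of these windows was 37.6% for members and 35.6% for all genes, and 42.1% for the 18 members in the strongest 10%, against 36.6% for all genes there. Its part in these motif counts was not tested.

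Genes that work with these chaperones, in 6 lists fixed by pathway, showed no optimal peak within 1000 bp of a start. Among all genes 0.635% had one, so its absence from lists of this size says little. Of 49 genes 31 had a pooled region (63.3%), 14 were in the strongest 10% (28.6%) and 10 had overlapping regions in both replicates (20.4%), against 53.1%, 9.12% and 11.7% of all genes. Genes of ER folding and its stress response had the most pooled regions, with 10 of 11 in the pooled list and 7 in its strongest 10%. Only 3 of the 11 had overlapping regions in both replicates (27.3%), against 33.3% for prefoldin and 50% for the mitochondrial unfolded protein response. Of the 7, only pdi-1 and pdi-3 were in the strongest 10% of replicate 1, and only pdi-1 and crt-1 in that of replicate 2. The disulfide isomerase gene pdi-1 had a signal value of 22.9 in the pooled list (0.83%), 22.1 in replicate 1 (0.497%) and 8.98 in replicate 2 (1.35%), but its summits lay at 542 bp in replicate 1 and -515 bp in replicate 2. At the calreticulin gene crt-1 they lay close together, with 18.1 in the pooled list (2.21%), 8.58 in replicate 1 (23.6%) and 7.56 in replicate 2 (3.00%). The ER stress sensor gene ire-1 had no region in any list.

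Of 11 co-chaperone genes of HSP90 and HSP70, 6 had a pooled region and 3 were in the strongest 10%, namely pph-5 (0.963%), unc-23 (2.04%) and ahsa-1 (3.23%). Prefoldin, which hands clients to CCT, had 3 of 6 genes in the pooled list and 2 in the strongest 10%, pfd-5 (3.90%) and pfd-3 (6.56%). Of 11 CDC-48 cofactor genes 6 had a pooled region and 1, ubxn-2 (2.47%), was in the strongest 10%. Of 6 genes of the mitochondrial unfolded protein response 4 had a pooled region and 1, clpp-1 (8.12%), was in the strongest 10%. Of 4 heat shock control genes 2 had a pooled region and none was in the strongest 10%, and hsf-1, the heat shock factor itself, had a region in replicate 1 alone, at 45.9%. Among all genes 53.1% had a pooled region and 9.12% were in the strongest 10%. The CDC-48 cofactors, at 54.5% and 9.09%, stood near these shares, and none of them ranked as high as cdc-48.1.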

How the data were processed

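ChIP-seq of eGFP-tagged NHR-67 was deposited as region lists on builds ce10 and ce11, of which only ce11 was used. Per the samples' deposited text records, candidate regions were called by the authors for each replicate and for both pooled, against 1 shared control, and the optimal list was derived from these by IDR. Each deposited region carries a signal value and a −log10 q-value of the authors. Regions came with aligner and caller not given in the sources used here. No read counts were used, so depth is unknown.

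Summits were assigned to every Ensembl 115 protein-coding gene with a transcript start within 1000 bp, and regions were ranked by signal within a list, with the −log10 q-value as an alternative. Assignment was tested on simulated data. Named genes were members with an optimal peak or in the strongest 10% of the pooled list, all CDC-48, HSP70, HSP90 and hsp-16 genes, the best of each class and the 5 weakest; the others with values, among them the CCT subunits and pathway genes, were chosen after their values were seen. In the co-chaperone list aha-1, which encodes the ARNT homolog and no co-chaperone, was left out. Members, lists and motifs were chosen with earlier results of these data known. Python 3.11.15, pandas 2.3.3, numpy 2.4.6, scipy 1.17.1 and matplotlib 3.10.9 were used.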

Additional observations from a re-analysis of the deposited data

How the results depend on the processing

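Of 54 recomputed values 50 stayed within set bounds. The settings included windows of 500 and 2000 bp, one start per gene, any base of the region in the window, equal list lengths, and ranking by the −log10 q-value. The bounds were 1.5 times the main count, a median rank between 5.1% and 27.9%, and a change in rho below 0.1, so the one for the median was wide. Members' shares were above those of all genes in 42 of 42 shares compared, which recut the same lists and are not independent. With each region counted for the nearest gene only, the pooled shares were 50% and 47.7%. Counting each region for the nearest gene only left 10 members with overlapping regions (16.1%, against 9.55% of all genes). It left 11 in the strongest 10% (17.7%, against 7.38%) and 3 with an optimal peak (4.84%, against 0.425%). In the strongest 10% lay 10 members without replicate 1 (16.1%, against 5.65% of all genes). Without replicate 2 it was 16 (25.8%, against 8.68%), and why was not tested. No paired analysis was possible because there is 1 group and no test. The number of replicates, 2, and the unknown depth limit what a missing region means, since a gene without one may fall short of the list's end, and the lists of 30000 regions may be limited in length.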

Other observations

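By chromosome, members with a pooled region were spread over all 6 nuclear chromosomes, with 8 of 9 on IV, 10 of 13 on II, 8 of 11 on III, 5 of 10 on I, 3 of 5 on X and 6 of 14 on V. The share of all genes with a pooled region was 54.3% on IV, 51.4% on II, 60.2% on III, 57.6% on I, 52.9% on X and 47.3% on V.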
